A study of Mus musculus with 6 samples.

Results

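The replication-dependent histone genes were taken as every gene of the deposited table whose symbol begins with Hist1h, Hist2h, Hist3h or Hist4h, which gave 39 of 15686 genes. They comprised 4 genes of linker histone H1, 8 of H2A, 11 of H2B, 7 of H3 and 9 of H4. RNA had been measured in 6 libraries of kit-isolated CD4+ T cells from the spleen of mice after haematopoietic stem cell transplantation, with ribosomal RNA depleted from total RNA rather than poly(A) RNA selected. In 3 libraries, labelled allogeneic, the donor is given as C57BL/6 and the host as Balb/c. In the other 3, labelled syngeneic, donor and host are both given as Balb/c. All 6 share the transplantation, the tissue and the strain label Balb/c. The labels do not say whether replicates were separate animals or pools, and the p-values below reflect the spread between these libraries alone, which may be technical.

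The core histones H2A, H2B, H3 and H4 form the nucleosome, around which DNA is wound, and H1 binds the linker DNA between nucleosomes. Most of their protein is made in S phase from many near-identical, intronless genes that lie in clusters and are switched on together as DNA is copied. Their messenger RNAs end without a poly(A) tail: a short stem-loop near the 3′ end is bound by SLBP, and the U7 small nuclear ribonucleoprotein directs a cut just after it. When replication stops these messages are degraded quickly, so in dividing lymphocytes they are widely read as a sign of S phase. Replacement histones, such as H2A.X and H3.3, come from separate genes.

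In the GENCODE M21 annotation (build GRCm38), 34 of the 39 genes lie on chromosome 13, 3 on chromosome 3 and 2 on chromosome 11. The annotation calls 38 protein coding and 1, Hist1h2al, a processed pseudogene. It has 70 genes with such names, and the 31 without a row in the table were not analysed here.

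The 3′ stem-loop is shown because it is the shared feature that sets these messages apart. A stem of 6 base pairs closed by a loop of 4 bases, 16 bases in all, was found in the GENCODE M21 transcripts of 29 of the 39 genes. Capitals mark the stem, and sequences are DNA letters read 5′ to 3′.
Loop in 15 genes of H1, H2A, H2B and H3: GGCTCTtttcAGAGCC
Loop in 4 genes of H2B and H3: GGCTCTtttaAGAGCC
Loop in 5 genes of H4: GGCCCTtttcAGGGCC
Loop in Hist1h4i and Hist2h4: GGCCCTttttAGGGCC
Loop in Hist1h4j: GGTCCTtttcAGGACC
Loop in Hist2h2ac: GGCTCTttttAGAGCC
Loop in Hist1h3g: GGCTCTtcttAGAGCC
The H4 genes carried a stem of their own, GGCCCT in 7 genes and GGTCCT in Hist1h4j, whereas every loop found in H1, H2A, H2B and H3 transcripts had the stem GGCTCT. The 10 transcripts without a match were Hist1h1a, Hist1h1b, Hist1h2ak, Hist1h2al, Hist1h2bc, Hist1h2bl, Hist1h3h, Hist1h3i, Hist1h4k and Hist2h2be. For these the search says only that the pattern searched is not in the annotated model.

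Promoters are shown for 4 genes: the H2B gene that was higher and the H2B gene that was lower in the libraries labelled allogeneic by the largest amount, the H4 gene that was lower, and the most abundant gene of all. RefSeq (GRCm38.p6) held a promoter, 250 bases before to 50 after the start, for 34 of the 39 genes. Capitals mark motifs found on either strand, and they do not overlap one another here. The TATA box was searched as TATAAA, the octamer, which OCT1 binds and which is known from H2B promoters, as ATTTGCAT, and the box known from H1 promoters as AAACACA. The CCAAT box was searched by its own letters. The windows are chr13:23571150-23571449 (+) for Hist1h2bg, chr13:22042948-22043247 (+) for Hist1h2bj, chr13:22041313-22041612 (-) for Hist1h4i and chr13:23738557-23738856 (+) for Hist1h1c.
Hist1h2bg: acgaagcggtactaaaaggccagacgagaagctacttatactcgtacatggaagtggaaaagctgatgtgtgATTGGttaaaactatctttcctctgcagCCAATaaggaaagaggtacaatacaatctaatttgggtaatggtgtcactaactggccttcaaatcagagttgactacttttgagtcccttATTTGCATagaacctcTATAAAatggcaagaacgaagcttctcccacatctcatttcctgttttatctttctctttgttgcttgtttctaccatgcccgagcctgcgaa
Hist1h2bj: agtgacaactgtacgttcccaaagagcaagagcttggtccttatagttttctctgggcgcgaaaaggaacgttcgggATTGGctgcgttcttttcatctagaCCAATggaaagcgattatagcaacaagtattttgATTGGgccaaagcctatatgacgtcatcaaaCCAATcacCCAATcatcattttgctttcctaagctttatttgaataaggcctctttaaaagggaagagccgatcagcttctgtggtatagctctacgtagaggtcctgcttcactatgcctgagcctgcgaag
Hist1h4i: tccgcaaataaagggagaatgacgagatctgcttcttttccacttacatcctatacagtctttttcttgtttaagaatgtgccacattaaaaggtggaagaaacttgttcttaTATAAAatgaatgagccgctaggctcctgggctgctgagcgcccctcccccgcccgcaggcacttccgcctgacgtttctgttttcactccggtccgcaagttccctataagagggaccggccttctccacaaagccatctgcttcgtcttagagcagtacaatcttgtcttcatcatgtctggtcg
Hist1h1c: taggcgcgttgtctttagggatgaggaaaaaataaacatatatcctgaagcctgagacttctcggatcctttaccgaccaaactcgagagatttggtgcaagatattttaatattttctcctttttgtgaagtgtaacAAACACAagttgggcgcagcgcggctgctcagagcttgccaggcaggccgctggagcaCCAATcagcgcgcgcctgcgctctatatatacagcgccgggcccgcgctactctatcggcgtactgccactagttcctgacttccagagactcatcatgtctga
The TATA box was found in 22 of the 34 promoters, against 13.6% of all 32851 RefSeq promoters. The CCAAT box was in 28 of 34, against 37.4%, and was in all 26 promoters outside H4 but in 2 of 8 H4 promoters. The octamer was in 8 of 34, against 1.7%: 4 of 7 H2A and 4 of 9 H2B promoters. Windows overlap for Hist1h2ae and Hist1h2bg, for Hist1h2ag and Hist1h2bj, and for Hist1h2ad and Hist1h2bf. Letters in such an overlap count for both genes, as do the octamer and TATA box of Hist1h2ae and Hist1h2bg. The H1 box was in 3 of 4 H1 promoters and in that of Hist1h2bm, against 7.2% of all promoters. Hist1h2bg and Hist1h2bj, which differed in direction between the groups, also differed in these letters: Hist1h2bg had the TATA box, the CCAAT box and the octamer, and Hist1h2bj had 5 copies of the CCAAT box and neither of the others. Hist3h2ba, the other H2B gene called lower, had the TATA box and the CCAAT box but not the octamer. A link between letters and direction was not tested. A match is a description of letters and not a site.

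The implied depth was 14.8 to 16.96 M reads per library, with 1244 to 1382 reads per library in the 39 genes together. Strain genes went against the labels: Ighg2c, an immunoglobulin segment known from C57BL/6, averaged 16.3 ± 0.25 FPKM (SD, n = 3) with the allogeneic label and 9605 ± 270 with the syngeneic one, Trbv26 was at 0.40 ± 0.44 and 56.5 ± 3.2, and H2-Ea-ps at 133 ± 3.0 and 21.1 ± 2.7. The titles also differ from the characteristics, with the letter S on the allogeneic and A on the syngeneic side. All directions below follow the characteristics, and every one of them would turn if these labels were exchanged. Markers of the sorted cells and of other cells moved with the groups. With the allogeneic label, the CD4 T cell markers were lower (14 of 14; summed level 1060 to 1078 against 2015 to 2127 FPKM), as were 2 of 2 CD8 markers (1.4 to 1.6 against 13.9 to 15.6), 7 of 7 plasma cell markers (499 to 519 against 831 to 860) and all 3 B cell markers tested (21.1 to 23.4 against 34.2 to 39.4 over 6 measured). Higher were 19 of 20 erythroid markers (at least 480 against at most 32.2), 12 of 13 granulocyte precursor markers (2313 to 2400 against 559 to 639), 10 of 10 blood progenitor markers (180 to 184 against 26.7 to 34.9) and 12 of 12 macrophage markers (804 to 825 against 161 to 179). With no filter, limma called 3 of the 6 B cell markers higher and 3 lower. No marker in the table was at 0 in all libraries of a group. The part of these cells in the results below was not tested, and in bulk RNA fewer cells of a type and less RNA per cell cannot be told apart.

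Histone genes had low values in these libraries. A median of 43.8% of a member's 50-base windows occur in another gene, and how reads of shared sequence were counted is not given in the sources. The part of discarded reads in these levels was not tested. FPKM is a level per transcript length and per depth of the library. The median gene of the 39 had a mean of 0.82 FPKM over the 6 libraries, against 5.61 for the median gene of the table, and 26 of the 39 lay under 1 FPKM, as did 17.1% of all genes. Only Hist1h1c (24.99 FPKM), Hist1h2bg (8.29) and Hist1h4i (6.31) reached the median of the table. On average 31 genes had under 20 reads per library, and 8 had a library at 0. The range over the 39 means was 0.31 to 24.99 FPKM: 0.77 to 24.99 in H1, 0.36 to 1.80 in H2A, 0.41 to 8.29 in H2B, 0.47 to 0.98 in H3 and 0.31 to 6.31 in H4. Because H1 was dominated by Hist1h1c, H1 took 51.1% of the histone reads, against 25.4% for H2B, 10.5% for H4, 8.8% for H2A and 4.2% for H3.

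**Figure D1:**
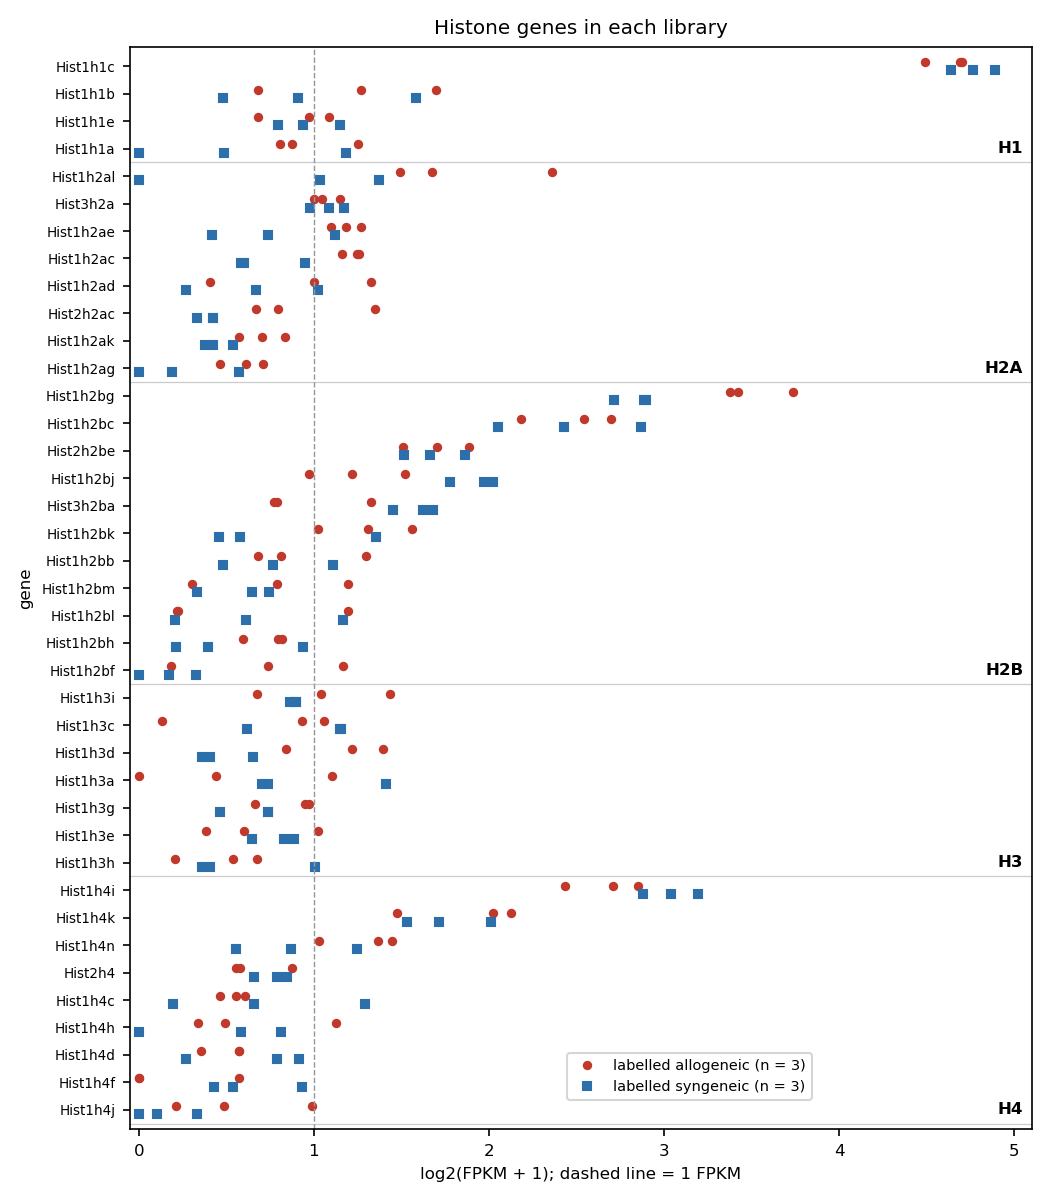
Level of each of the 39 histone genes in each library, as log2(FPKM + 1), grouped by histone type; circles are the 3 libraries labelled allogeneic, squares the 3 labelled syngeneic, and the dashed line marks 1 FPKM. Hist1h1c, Hist1h2bg and Hist1h4i stand above the other genes of H1, H2B and H4. The groups do not overlap in 9 of the 39 genes, against 67.9% of all genes in the table.

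The 3 most abundant genes had annotated transcripts that run on past the stem-loop. Transcripts of 15 genes ran more than 100 bases past it and held 74.8% of the histone reads. In Hist1h1c 840 bases follow the loop, in Hist1h4i 330, in Hist1h2bg 155, in Hist1h2ac 2010 and in Hist3h2ba 169. The 14 transcripts that end nearer the loop, such as Hist1h2bj with 23 bases after it, held 6.8% of the reads. The 10 without a loop in the model held 18.4%. The medians of the mean level were closer, 0.93, 0.72 and 1.12 FPKM, so that the share of reads lay in a few long models, and the 100-base split was chosen after the values were seen.

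**Figure D2:**
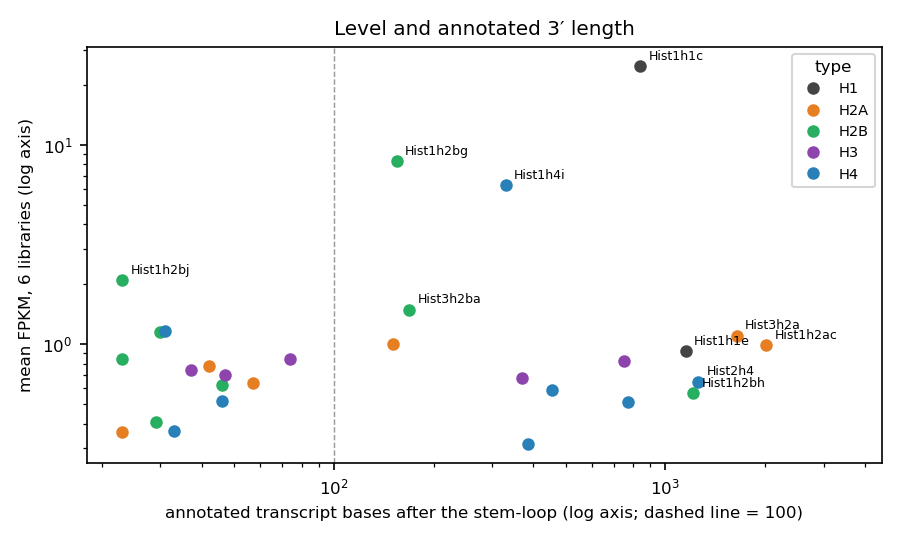
Mean FPKM over the 6 libraries (log axis) against the annotated bases after the stem-loop (log axis) for the 29 genes with a loop, coloured by histone type; the dashed line marks 100 bases. The 3 genes above 5 FPKM lie to the right of the line, as do other genes near 1 FPKM and below.

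The comparison between the groups asks whether histone RNA differed between the bulk libraries labelled allogeneic and those labelled syngeneic. It cannot separate CD4+ T cells from the other cells whose markers differed. Of the 17 genes that passed the filter of 1 FPKM in at least 3 libraries, limma (Benjamini-Hochberg over 13235 genes, threshold 0.05) called 3 higher and 3 lower in the libraries labelled allogeneic. Over all genes tested 67.4% were called, 40.7% higher and 26.6% lower. The median difference was 0.12 for these 17 and 0.09 for all genes tested, on the log2(FPKM + 1) scale, which understates the change of low genes. The other 22 genes did not pass the filter. With no filter all 39 entered the fit, and 4 were called higher and 3 lower, beside 61.1% of all genes. Levels of the groups did not overlap in 9 of the 39 genes, against 67.9% of all genes in the table and 72.5% of those tested. With voom on recovered reads 3 of the 17 were called higher and 2 lower, beside 69.6% of all genes tested (41.9% higher and 27.7% lower). Voom with no filter gave 4 higher and 1 lower of 39, beside 63.4% (37.9% and 25.5%), and the shares for limma with no filter were 36.7% higher and 24.3% lower.

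Read depth divided these shares. Among the 31 histone genes with under 120 reads over the 6 libraries, the groups did not overlap in 6 and 4 were called with no filter, and over all 2211 such genes the shares were 32.3% and 26.3%. Among the 8 with at least 120 reads, the groups did not overlap in 3 and these same 3, Hist1h2ac, Hist1h2bg and Hist1h4i, were called, beside 73.8% and 66.8% of 13452 such genes. The division at 120 reads was chosen after the values were seen.

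H1 genes encode linker histones. Hist1h1c (H1.2; ENSMUSG00000036181; chr13:23738808-23740367, + strand) was at 24.97, 21.5 and 24.8 FPKM with the allogeneic label and 26.2, 23.9 and 28.6 with the syngeneic one, and rested on 3766 reads. The ranges overlapped, and the difference of -0.14 on the log2 scale (95% interval -0.33 to 0.06) was not called (limma adjusted p = 0.18). With equal upper quartiles it was called lower (-0.23; adjusted p = 0.0407). Hist1h1b (H1.5) varied within both groups, at 1.41, 2.25 and 0.60 against 0.40, 0.88 and 1.995 FPKM, with a difference of 0.22 (-0.61 to 1.05). Hist1h1e (H1.4), at 0.61, 1.12 and 0.96 against 0.92, 0.74 and 1.22 FPKM, did not pass the filter, and its model overlaps Hist1h2be on the same strand. Hist1h1a (H1.1) was at 0.75, 0.83 and 1.38 against 0, 0.40 and 1.27 FPKM.

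H2A was the type whose members most often had the higher mean in the libraries labelled allogeneic, 7 of 8. The counts were 23 of 39 for all members and 7 of 11 for H2B. Members of a type share sequence, so these directions are not separate observations. Hist1h2ac (ENSMUSG00000069270; chr13:23681467-23683948, - strand) was at 1.39, 1.37 and 1.23 FPKM against 0.50, 0.93 and 0.52. All 3 libraries labelled allogeneic stood above the other 3, on 159 against 79 reads, and the gene rose by 0.51 (SE 0.13; limma adjusted p = 0.0105). It reached 1 FPKM in these 3 libraries alone, so it passed the filter only through the group in which it was higher; with no filter its adjusted p was 0.0119. Hist1h2al, the annotated pseudogene (chr13:51202727-51203065, - strand), was at 1.82, 2.19 and 4.14 against 0, 1.05 and 1.59 FPKM, on 44 against 14 reads, a rise of 1.04 (SE 0.39; limma adjusted p = 0.0489). That call was lost without any 1 library other than syngeneic replicate 3 (differences from 0.64 to 1.33), and with quantile normalization, equal upper quartiles, no filter, a pseudocount of 0.1 or no trend (adjusted p from 0.0555 to 0.104), and 67.6% of its 50-base windows occur in another gene.

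Hist1h2ae, at 1.14, 1.41 and 1.27 against 1.17, 0.34 and 0.67 FPKM, differed by 0.42 (-0.01 to 0.86; limma adjusted p = 0.078). Hist3h2a on chromosome 11 was level, at 1.00, 1.07 and 1.22 against 1.13, 0.97 and 1.26 FPKM, with a difference of -0.01 (-0.25 to 0.22), and it overlaps Trim17. Hist2h2ac, too low for the filter, was at 0.59, 1.55 and 0.74 against 0.34, 0.34 and 0.26 FPKM on 24 against 8 reads, and was called higher with no filter by limma (0.55; adjusted p = 0.0419) but not by voom on reads (adjusted p = 0.101). Without strand information in the sources, reads of all 8 H2A genes cannot be told apart from those of entries annotated on the opposite strand.

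H2B held genes that moved in opposite directions. Hist1h2bg (ENSMUSG00000058385; chr13:23571396-23572013, + strand) was at 9.36, 12.3 and 9.70 FPKM in the libraries labelled allogeneic against 6.39, 5.56 and 6.43. The groups did not overlap, on 311 against 184 reads, and the gene rose by 0.68 (SE 0.11; limma adjusted p = 0.00124), which was the smallest adjusted p of the 17. Hist1h2bj (ENSMUSG00000069300; chr13:22043214-22043676, + strand) was at 1.33, 1.87 and 0.96 against 2.93, 2.43 and 3.06 FPKM, also without overlap, and fell by 0.69 (SE 0.15; limma adjusted p = 0.00596). It rested on 31 against 63 reads, its adjusted p was 0.0504 by voom with no filter, and 59.4% of its 50-base windows occur in another gene.

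Hist3h2ba (chr11:58948920-58949533, + strand) was at 1.503, 0.70 and 0.73 against 2.21, 1.74 and 2.09 FPKM, on 29 against 60 reads, and fell by 0.63 (SE 0.17; limma adjusted p = 0.0142). The highest library labelled allogeneic lay below the lowest labelled syngeneic. Hist1h2bc and Hist2h2be, the H2B genes next in level after Hist1h2bg, both lacked a loop in their models and showed no call. Hist1h2bc was at 5.48, 4.81 and 3.53 against 4.39, 6.31 and 3.15 FPKM, a difference of 0.02 (-0.51 to 0.56). Hist2h2be was at 2.25, 2.69 and 1.85 against 2.63, 2.17 and 1.85 FPKM, a difference of 0.02 (-0.29 to 0.33).

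H3 genes had the fewest reads of the 5 types, with 185 reads over the 3 libraries labelled allogeneic and 154 over the others. Hist1h3c, the member that passed the filter, was at 0.10, 1.08 and 0.91 against 1.22, 1.22 and 0.53 FPKM and was not called (-0.26; -0.93 to 0.40). Hist1h3i was at 0.60, 1.05 and 1.71 against 0.86, 0.87 and 0.82 FPKM and did not pass, and 87.6% of its 50-base windows are shared with other genes. Hist1h3d was at 1.63, 0.79 and 1.33 against 0.28, 0.57 and 0.32 FPKM on 75 against 24 reads; it did not pass the filter, and with no filter it was called higher (0.68; limma adjusted p = 0.0121).

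Among H4 genes Hist1h4i (ENSMUSG00000060639; chr13:22040636-22041362, - strand) was at 4.40, 6.21 and 5.53 FPKM against 7.22, 6.36 and 8.16. The groups lay next to each other without overlap, on 188 against 255 reads, and the gene fell by 0.37 (SE 0.13; limma adjusted p = 0.0342). The call was lost without replicate 1 or replicate 3 of either group (differences from -0.47 to -0.26) and with voom on reads. Hist1h4k was at 1.78, 3.37 and 3.07 against 1.89, 2.28 and 3.02 FPKM (difference 0.12; -0.36 to 0.60), and Hist1h4n at 1.57, 1.73 and 1.04 against 1.37, 0.83 and 0.47 (0.39; -0.09 to 0.87). Neither was called. All H4 genes encode the same protein, and many windows of the last pair are shared with other H4 genes (71.5% and 85.6% at 50 bases).

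**Figure D3:**
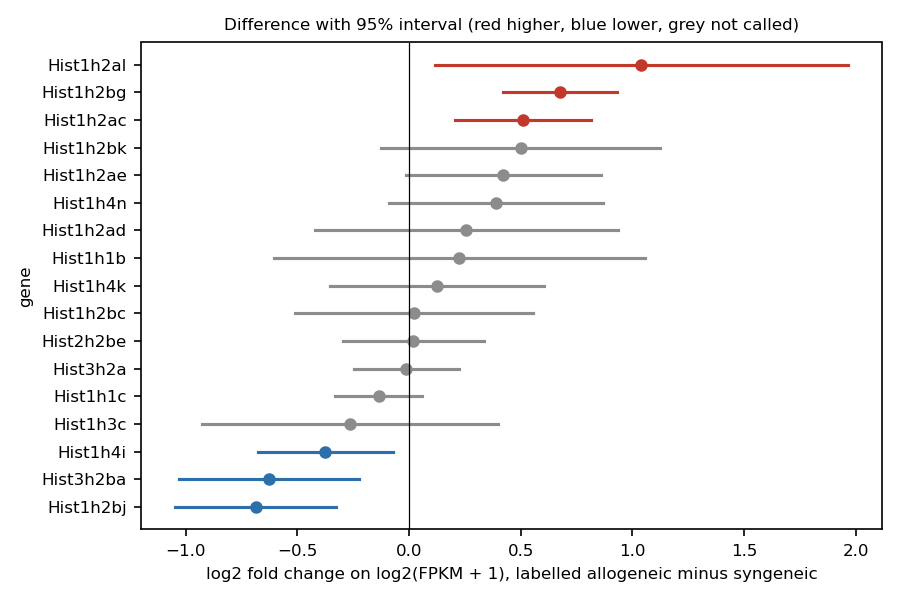
Difference between the libraries labelled allogeneic and syngeneic (log2 scale of FPKM + 1) with its 95% interval from limma for the 17 tested histone genes; red marks genes called higher, blue lower, grey not called. Hist1h2al, Hist1h2bg and Hist1h2ac lie to the right of 0 and Hist1h4i, Hist3h2ba and Hist1h2bj to the left.

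Sums of FPKM over a type still depend on how shared reads were divided between its members, because 1 read weighs more in a shorter model. In H2A, 1 read is worth 0.183 FPKM in Hist1h2al and 0.025 in Hist1h2ac. Such sums also leave out reads given to copies without a row in the table, or discarded. Summed over all 39 genes the level was 77.2, 81.1 and 78.7 FPKM under the allogeneic label and 72.0, 72.7 and 75.8 under the syngeneic one. The ratio of 1.08 (log2 ratio 0.10) came with groups that did not overlap, and the two-sided exact permutation p of 0.1 is the smallest that 3 libraries against 3 allow. It depended on the scaling: the log2 ratio was 0.0069 with equal upper quartiles (exact permutation p = 0.8) and 1.19 with CD3 scaling, and it was 0.23 without Hist1h1c. H2A lay farthest from a ratio of 1 among the 5 types, whichever way the labels are read: 8.45, 9.32 and 10.6 against 3.79, 5.45 and 5.36 FPKM, a ratio of 1.94 (exact permutation p = 0.1; 0.5 after Benjamini-Hochberg adjustment over 5 types). The H2A log2 ratio was 0.96 with Hist1h2al, the annotated pseudogene, and 0.76 without it. Over the H2A genes there were 433 against 271 reads. For H2B the sum was 24.8 ± 2.6 (SD, n = 3) against 21.1 ± 1.4 (exact permutation p = 0.2). Without Hist1h2bg the direction of the H2B sum turned (log2 ratio 0.23 with it and -0.06 without). The other types overlapped between groups: H1 27.1 ± 1.2 against 28.8 ± 3.8 FPKM, H3 5.41 ± 0.83 against 5.06 ± 1.28, and H4 12.3 ± 2.5 against 13.7 ± 0.88 (exact permutation p = 0.8, 0.7 and 0.7).

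**Figure D4:**
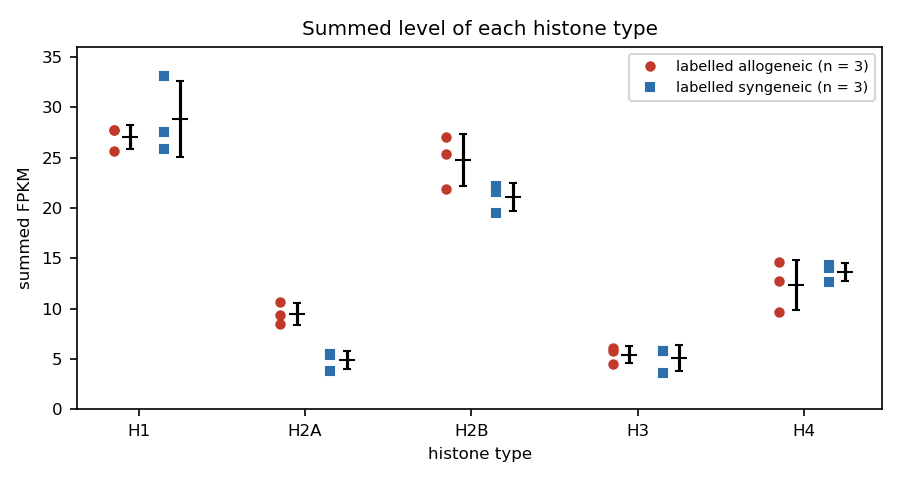
Summed FPKM of each histone type in each library, with the mean and SD beside the points (n = 3 per group). H2A is the type in which the libraries labelled allogeneic, at 8.45 to 10.6 FPKM, all stand above those labelled syngeneic, at 3.79 to 5.45.

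Several H2A and H2B genes face away from each other across a short shared promoter, and 5 such pairs had both genes in the table, 175 to 269 bases apart. At Hist1h2ae and Hist1h2bg the differences were 0.42 and 0.68, with Hist1h2bg called. Across the 250 bases between Hist1h2ac and Hist1h2bc they were 0.51 (called) and 0.02, on 159 against 79 and 257 against 263 reads. On chromosome 3, Hist2h2ac and Hist2h2be, 238 bases apart, differed by 0.55 (24 against 8 reads) and 0.02. Hist2h2ac, Hist1h2ag and Hist1h2bf did not pass the filter, and their differences come from the fit with no filter. Hist1h2ag and Hist1h2bj differed by 0.34 (12 against 5 reads) and -0.69, and Hist1h2bf and Hist1h2ad by 0.53 (15 against 3 reads) and 0.26. Whether the partners of a pair differed from each other was not tested.

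Genes that copy DNA were higher in the same libraries. All 37 genes of the replication list were called higher (median 0.91), among them Pola1, a DNA polymerase subunit (1.396), Orc1 of the origin recognition complex (1.37), Uhrf1 (1.29) and Mcm10 (1.29). The 6 subunits of the replicative helicase, Mcm2 to Mcm7, summed to 523 ± 6.6 FPKM (SD, n = 3) against 251 ± 7.8, a ratio of 2.09. All 20 mitosis genes were called higher too (median 0.75), such as Bub1 (1.24), Top2a (1.16), Cdk1 (1.148) and Aurkb (1.05). Histone FPKM per Mcm2 to Mcm7 FPKM was 0.151 ± 0.002 under the allogeneic label and 0.293 ± 0.0034 under the syngeneic one. The groups did not overlap in this ratio, which does not change with the scaling of a library (exact permutation p = 0.1, the smallest possible). Scaled to Mcm2 to Mcm7, the H2A sum no longer was higher (log2 ratio -0.10).

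**Figure D5:**
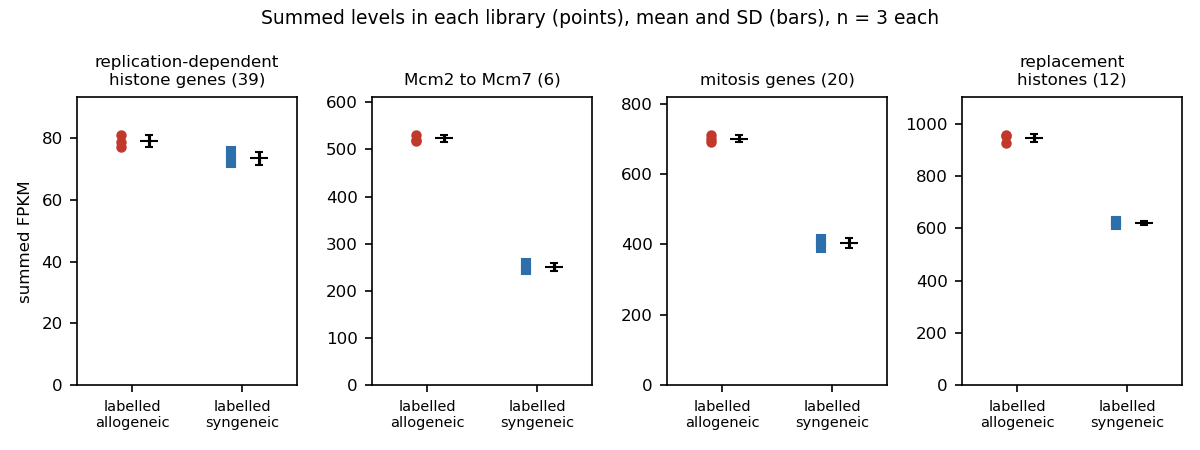
Summed FPKM in each library of the 39 histone genes, of Mcm2 to Mcm7, of 20 mitosis genes and of 12 replacement histone genes, with mean and SD beside the points (n = 3 per group). The histone sum lies at 77.2 to 81.1 and 72.0 to 75.8 FPKM in the 2 groups, while the other 3 sums are 2.09, 1.73 and 1.53 times as high in the libraries labelled allogeneic.

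Replacement histones, which are made outside S phase as well, had a far higher summed level in the table. Single genes ranged widely, from H2afy2 (1.28 FPKM with the allogeneic and 0.18 with the syngeneic label) to H3f3b (287 and 218). The 12 measured summed to 947 ± 16.5 against 621 ± 8.0 FPKM, and 11 were called higher and 1 lower (median 0.69). H1fx (H1.X) had the largest rise, 1.88, from 0.36 to 3.98 FPKM, followed by H2afy (macroH2A1), which rose by 1.37 from 41.0 to 108. H2afx (H2A.X, phosphorylated at DNA breaks) rose by 0.96, at 79.1, 80.9 and 87.3 against 38.3, 45.3 and 42.6 FPKM. H1f0 (H1.0, a linker histone of resting cells) fell by 0.17, at 23.9, 23.0 and 20.5 against 24.7, 25.5 and 26.1 FPKM (limma adjusted p = 0.0405), a call lost with the replicate block, without the trend and without any 1 library other than allogeneic replicate 1 (differences from -0.22 to -0.11).

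Of the factors that make and destroy histone messages, 11 of 18 processing genes were called higher and 0 lower by limma (median 0.31; 10 and 1 with equal upper quartiles), with 0 lower at an unadjusted p under 0.05 and 0 by voom. Slbp, which binds the stem-loop, was at 22.7, 23.5 and 22.8 FPKM against 14.2, 13.2 and 14.5 and rose by 0.68 (SE 0.04; limma adjusted p = 1.85e-05). Of the 2 Sm-like proteins particular to the U7 particle, Lsm10 rose by 0.26 (limma adjusted p = 0.039), a call lost with quantile normalization, equal upper quartiles, no trend, voom and without any 1 library other than allogeneic replicate 2 (differences from 0.19 to 0.35), and Lsm11 showed no call (0.10; adjusted p = 0.499). Ncbp2 of the cap-binding complex (0.80), Nelfe of the NELF elongation complex (0.64) and Snrpd3 of the U7 ring (0.62) rose. Npat, the coactivator of histone genes driven by cyclin E, was at 7.56, 7.48 and 6.98 against 7.51, 6.95 and 6.68 FPKM (0.05; limma adjusted p = 0.456), and its partner Casp8ap2 (FLASH) differed by 0.17 (adjusted p = 0.0751).

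The decay list gave 6 higher and 4 lower of 15 (median 0.07), shares close to the 40.7% and 26.6% over all genes tested, with rises in Lsm3 (0.88) and Lsm2 (0.72) of the Lsm ring and falls in Smg1 (-0.43), a kinase of RNA surveillance, and Zcchc11 (-0.38), a uridylyl transferase. The transcription factor list also lay near those shares, with 6 higher and 5 lower of 17 (median 0.05), or 5 and 6 with quantile normalization (-0.04) and equal upper quartiles (-0.03). It was led by E2f1 (1.19) and Ccne2, cyclin E2 (0.86), with Gon4l (-0.29) and E2f2 (-0.28) lower. Chaperones, which carry histones to DNA, gave 20 higher and 2 lower of 27 (median 0.72), or 19 and 6 with equal upper quartiles. Nasp, the H3-H4 storage chaperone, rose by 0.91, and Chaf1a of the chromatin assembly factor CAF-1 and Mcm2, which also binds H3-H4, rose by 1.09 each. Daxx (-0.53) and Ubn1 (-0.19), which deposit H3.3, fell. Together these 5 lists held 85 genes, of which 53 were called higher and 12 lower.

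Scaling to the 4 CD3 chains of each library, parts of the T cell receptor complex, gave all genes a median difference of 1.02. There 12 of the 17 histone genes were called higher and 0 lower, with a median of 0.91, and none of the 17 was lower at an unadjusted p under 0.05 either. Of all genes tested 90.3% were called on that scale, 86.2% as higher and 4.13% as lower.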

How the data were processed

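The authors deposited FPKM (or RPKM), judged from the values themselves, with 1 column per library. The submitters' processing notes name limma. Aligner, counter, build and annotation: not given in the sources used here. A value times the gene's merged exon length in GENCODE M21 gave whole reads, within 0.05, for 14537 of 15663 genes (92.8%) in all 6 libraries. These recovered reads describe depth and entered voom as an alternative test.

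The 13235 genes that reached 1 FPKM in 3 or more libraries were compared with limma 3.58.1 in R 4.3.3 on log2(FPKM + 1), with a mean-variance trend and no covariate, libraries labelled allogeneic minus syngeneic, with Benjamini-Hochberg adjustment over all of them. For sums a two-sided exact permutation test was used. Replicates differed by more than counting error (median chi-square 2.46 to 3.54 times it), so each counted once. On simulated reads limma called 0 of 13002 unchanged genes, 150 of 199 changed 1.5-fold (165 genes called in all) and 188 of 199 changed 2-fold (203 called in all). The changed genes were drawn from those with a mean of at least 1 FPKM, and the spread between libraries was set rather than estimated. These shares therefore do not describe the 26 histone genes with a mean under 1 FPKM.

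The members and lists were chosen with earlier results of these data known. Named were, per histone type, the 3 highest genes and the called genes, genes near the filter, and of each other list up to 4 genes with the largest called changes beside 8 set ones. Genes named for calls without the filter, and the remaining genes of a divergent pair, were chosen after their values were seen. Motifs were searched as exact letters, and stem-loops as a pattern that allows alternative letters at some positions. Shared sequence was searched as 50-base windows found in another gene's transcript (median 43.8% of a member's windows). Alternatives were quantile normalization, equal upper quartiles, scaling to CD3 chains or Mcm2 to Mcm7, other filters and pseudocounts, no trend, voom, a replicate block and leaving out each library; voom with no filter was added after the data were seen. Python 3.11.15, pandas 2.3.3 and matplotlib 3.10.9 made tables and plots.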

Additional observations from a re-analysis of the deposited data

How the results depend on the processing

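On average 31 of 39 genes had under 20 reads per library; the part of depth in their calls was not tested, and of the 8 deeper genes 3 were called beside 66.8% of such genes. Values here are numbers of genes called or log2 differences and log2 ratios of sums. With scaling to the CD3 chains 12 of 17 histone genes were called higher and 0 lower, beside 86.2% and 4.13% of all genes tested. A filter of 5 FPKM gave 1 higher and 1 lower of 3, beside 6515 of 8652 genes called in either direction. Voom on reads with no filter called 1 of 39 lower, beside 25.5% of all genes. Leaving out each library gave 2 to 4 higher and 2 to 3 lower of 17, beside 8259 to 8506 of 13235 genes called in either direction. The median of the histone genes was 0.024 with quantile normalization, 0.91 with CD3 scaling, -0.14 with the filter of 5 FPKM, 0.29 by voom with no filter and -0.0031 to 0.22 without each library. Of the 85 pathway genes, 85 were higher and 0 lower with CD3 scaling, where 86.2% of all genes tested were called higher. With equal upper quartiles 19 pathway genes were lower, in a setting that called 8901 of 13235 genes in either direction. Scaled to Mcm2 to Mcm7, the sums were -0.96 for all genes, -0.10 for H2A, -0.83 for H2B and -0.97 for H3; with CD3 scaling, H1 was 0.99 and H4 0.94. Without its highest gene H1 was 0.34, H2A 0.76, H2B -0.0623, H3 0.027 and H4 0.12. H3 was -0.0008 with equal upper quartiles. Leaving out each library, H1 ran from -0.16 to 0.019 and H3 from -0.0997 to 0.22.

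Directions of named genes turned with CD3 scaling for Hist1h1c (0.91), Hist3h2a (0.57), Hist1h3c (0.20), Hist1h4i (0.57), Hist1h2bj (0.0297), H1f0 (0.87), Smg1 (0.62), Zcchc11 (0.63), Gon4l (0.70), E2f2 (0.76), Daxx (0.52) and Ubn1 (0.86). They also turned for Hist1h2bc, Hist2h2be and Npat with quantile normalization (-0.0979, -0.0785 and -0.0698) and equal upper quartiles (-0.058, -0.0475 and -0.033), and for Lsm11 with quantile normalization (-0.018). Without each library the ranges that crossed 0 were -0.0304 to 0.52 for Hist1h1b, -0.0647 to 0.034 for Hist3h2a, -0.18 to 0.23 for Hist1h2bc, -0.0725 to 0.11 for Hist2h2be, -0.44 to 0.022 for Hist1h3c, -0.0027 to 0.32 for Hist1h4k and -0.0348 to 0.20 for Lsm11. The cause was not tested. Hist1h2bg and Hist1h2ac stayed called higher under every alternative that tested them.

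Libraries share replicate numbers 1 to 3 across groups, but deviations of same-numbered libraries correlated at -0.031, 0.016 and -0.054. These values show no shared deviation, but they cannot say whether same-numbered libraries were handled together. With the replicate block limma called 3 histone genes higher and 4 lower of 17, adding Hist1h1c (limma adjusted p = 0.0433). Over all genes tested with the block, 8673 of 13235 were called in either direction. For the sums a block cannot change the group means, and the paired exact permutation p was 0.25 or more, the smallest 3 pairs allow.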
